A study of Mus musculus with 6 samples.

Results

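The 9 genes described here encode the core of transforming growth factor beta (TGF-beta) signalling: the ligands Tgfb1, Tgfb2 and Tgfb3, the receptors Tgfbr1, Tgfbr2 and Tgfbr3, the ligand-storing protein gene Ltbp1, and the inhibitory SMAD genes Smad6 and Smad7. They were picked by gene symbol from the roles of their products, with earlier results of these data known. All 9 were found among the 37924 genes of the deposited table, and all 9 passed the filter on low values. Transcript levels were measured by RNA sequencing in whole ovaries of mice at postnatal day 14, of the mixed strain C57BL/6J/129S7/SvEvBrd. Both groups carried 2 copies of a floxed allele. The 3 conditional knockout (cKO) libraries also carried Gdf9iCre, a Cre recombinase under the promoter of the oocyte gene Gdf9, and the 3 control libraries had no Cre. Each library was a pool of 3 mice, with 1 ovary from each. That promoter is active in oocytes, whereas the measured RNA came from every cell of the ovary.

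TGF-beta ligands are secreted in a latent complex that LTBP1 tethers to the matrix, and they act only after release. The free dimer binds TGFBR2, which recruits and phosphorylates TGFBR1, and TGFBR1 then phosphorylates SMAD2 and SMAD3; TGFBR3 (betaglycan) presents ligand and also serves as a co-receptor of inhibin. SMAD7 blocks the TGF-beta and BMP receptors, SMAD6 mainly blocks BMP signalling, and both genes are themselves induced by the pathways that they restrain. In the ovary, TGF-beta ligands and receptors are made by granulosa, theca and stromal cells, and the related oocyte factor GDF9 also signals through SMAD2 and SMAD3.

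The libraries held an estimated 19600000 to 24900000 fragments, and 13170 to 13649 genes had at least 1 FPKM (fragments per kilobase of transcript, scaled to the library total). Mitochondrial transcripts took 7.31% to 14.2% of summed FPKM. As in ovary, all 14 granulosa cell and all 12 oocyte marker genes were detected. Values are FPKM, and log2 changes are differences of log2(FPKM + 1), cKO minus control; the added 1 shrinks the change of genes with few FPKM. Tests are those of limma across 14934 genes with Benjamini-Hochberg adjustment, and "rose" and "fell" are used only of genes with an adjusted p below 0.05.

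None of the 9 genes passed that test, 0 in either direction, while 4.33% of all genes tested passed, 2.24% higher and 2.09% lower in cKO. That split, 334 genes higher and 312 lower, was 254 and 577 with libraries centred on their median and 270 and 421 after quantile normalisation. It moved the other way, to 447 and 294, with nuclear genes rescaled to a common sum. In whole ovary, fewer cells of a type cannot be told apart from less RNA per cell. Adjusted p-values ran from 0.106 for Tgfb1 to 0.538 for Tgfbr2. At an unadjusted p below 0.05, 3 of the 9 were higher in cKO (Tgfb1, Tgfb2 and Tgfbr3) and 0 were lower, against 14.5% and 9.8% of all genes (24.3% in either direction). This count depended on the scaling. With libraries centred on their median, 2 were higher and 2 lower (Ltbp1 and Smad6). After quantile normalisation, 2 were higher and 1 lower (Smad6), and Tgfb2 missed that threshold in both. The counts over all genes tested moved too, from 2167 higher and 1463 lower as reported. They were 1452 and 2327 with median centring, and 1671 and 1842 after quantile normalisation. With nuclear genes rescaled to a common sum they were 2800 and 1144. Tgfb1, Tgfb2 and Tgfbr3 had every cKO library above every control library, and the groups overlapped for the other 6. That pattern was seen in 18% of all genes tested (30% with either group on top). The 6 ligand and receptor genes all had a positive log2 change, and Ltbp1, Smad6 and Smad7 had a negative one. The median log2 change was 0.15 over the 9 genes and 0.05 over all genes tested, of which 58.5% were positive.

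**Figure D1:**
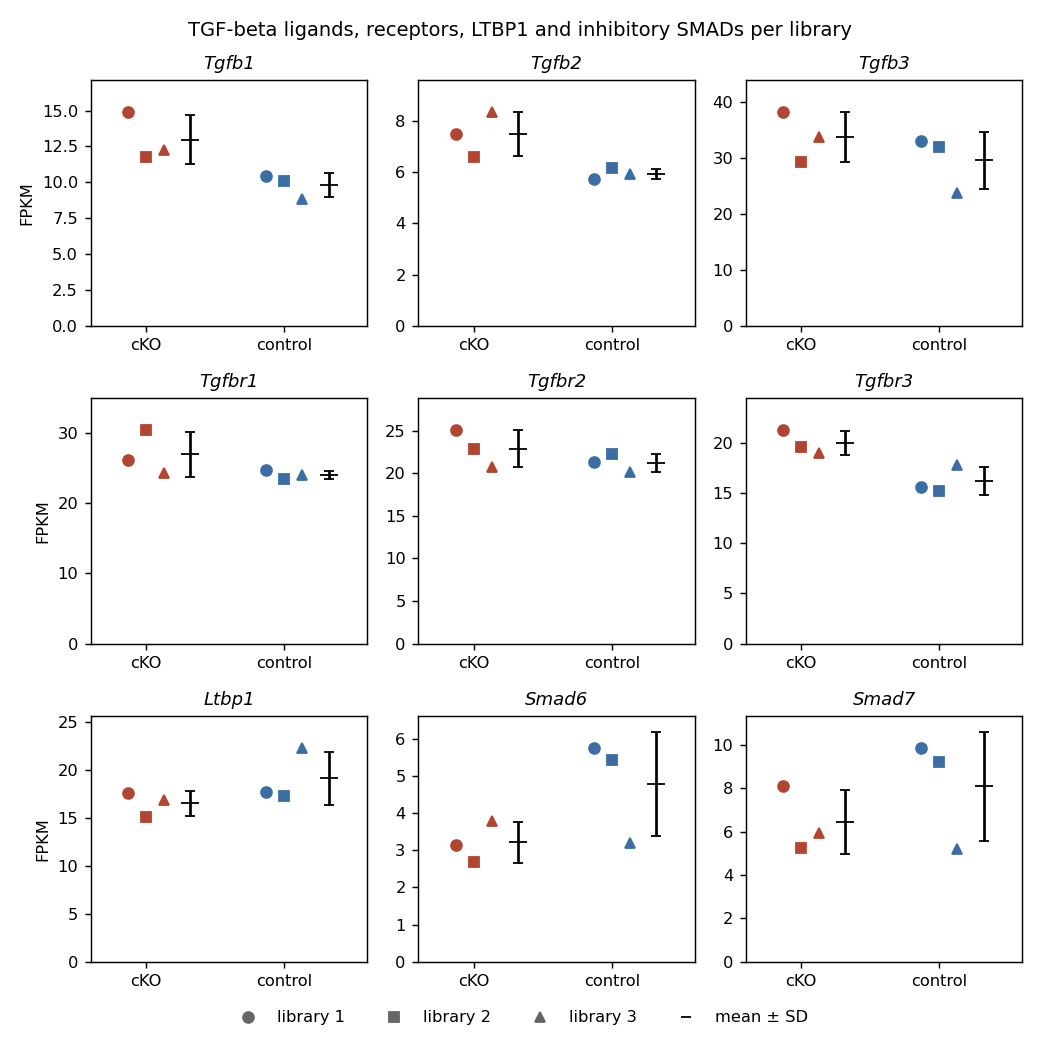
FPKM of each gene in the 3 cKO libraries (red) and the 3 control libraries (blue), with a symbol for each library number and the mean ± SD (black) of each group; every vertical axis starts at 0. Tgfb1, Tgfb2 and Tgfbr3 have all cKO libraries above all control libraries, and Smad6 and Smad7 are high in control 1 and control 2 but not in control 3.

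Among the ligands, Tgfb1, the isoform best known from immune and stromal cells, measured 14.9, 11.7 and 12.3 FPKM in cKO 1 to 3, against 10.5, 10.1 and 8.84 FPKM in control 1 to 3. Every cKO library was above every control library, and cKO 1 was the highest. Group means were 12.98 ± 1.70 FPKM in cKO and 9.80 ± 0.85 FPKM in control (SD, n = 3 each), a ratio of 1.32. The log2 change of 0.37 (SE 0.11) had a 95% interval from 0.10 to 0.63 and its adjusted p was 0.106 by limma, so it did not pass. Tgfb1 lies at chr7:25687002-25705077 of mm10 on the plus strand, and none of its exons overlaps another annotated gene.

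Tgfb2, which in mice is needed for heart, skeletal and urogenital development, was the lowest of the ligands. It measured 7.52, 6.62 and 8.37 FPKM in cKO 1 to 3, against 5.74, 6.16 and 5.92 FPKM in control 1 to 3. The groups did not overlap, and means were 7.51 ± 0.88 FPKM in cKO and 5.94 ± 0.21 FPKM in control (SD, n = 3 each). The log2 change was 0.29 (SE 0.10) with a 95% interval from 0.05 to 0.53, at an adjusted p of 0.143 by limma. Without cKO 3 the log2 change of Tgfb2 was 0.22, and without cKO 2 it was 0.37. Tgfb2 spans chr1:186622792-186705989 on the minus strand and shares exonic bases with Gm29491 on the opposite strand, so that reads of either could be counted for it.

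Tgfb3, a ligand known in mice for its role in palate closure, had the highest mean FPKM of the 9 genes. Tgfbr1 was above it in cKO 2 and in control 3, at 30.5 and 24.0 FPKM. Tgfb3 measured 38.3, 29.3 and 33.8 FPKM in cKO 1 to 3, against 33.1, 31.9 and 23.7 FPKM in control 1 to 3. The groups overlapped, and control 3 lay below the rest. The log2 change was 0.19 (SE 0.15), at an adjusted p of 0.466 by limma, and it was 0.05 without control 3 and 0.10 without cKO 1. The gene spans chr12:86056745-86079041 on the minus strand, where Gm37804 and Gm48008 overlap its exons on the opposite strand.

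The promoters of Tgfb1 and Tgfb2, the ligand genes whose groups did not overlap, differ in the elements they hold, so the 250 bases before each start are shown from RefSeq (GRCm38.p6, the assembly of mm10), 5′ to 3′ on the strand of the gene. Capitals mark matches on either strand to the motifs searched.
Tgfb1, chr7:25686752-25687001, plus strand: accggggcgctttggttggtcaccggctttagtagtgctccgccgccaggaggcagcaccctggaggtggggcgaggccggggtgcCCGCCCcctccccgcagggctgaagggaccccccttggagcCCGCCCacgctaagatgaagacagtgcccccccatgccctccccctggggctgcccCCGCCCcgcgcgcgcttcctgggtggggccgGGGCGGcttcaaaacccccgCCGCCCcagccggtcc
Tgfb2, chr1:186705990-186706239, minus strand: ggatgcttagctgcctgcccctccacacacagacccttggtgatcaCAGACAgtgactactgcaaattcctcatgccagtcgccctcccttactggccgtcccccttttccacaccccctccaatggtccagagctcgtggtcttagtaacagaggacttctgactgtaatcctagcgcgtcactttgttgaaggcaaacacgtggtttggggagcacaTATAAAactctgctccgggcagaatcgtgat
The Tgfb1 window was 75.2% G and C and held 5 GC boxes (GGGCGG, the element bound by SP1), with first bases from -164 to -16 relative to the start. A GC box was present in 32.7% of all 32851 promoter windows of that length. The Tgfb2 window was 53.6% G and C and held no GC box. It held a TATA box (TATAAA) at -31, a motif in 12.4% of all windows, and a CAGACA element, a sequence bound by SMAD3, at -204, a motif in 17.1%. Neither window held the palindrome GTCTAGAC (0.167% of all windows), the GC-rich SMAD element GGCGCC (9.59%), the cAMP response element TGACGTCA (1.55%) or the AP-1 site TGANTCA (6.75%). The marked matches do not overlap each other.

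Summed over the ligands, the libraries held 60.7, 47.7 and 54.4 FPKM in cKO 1 to 3, against 49.3, 48.1 and 38.5 FPKM in control 1 to 3. The sums overlapped, since cKO 2 lay below control 1 and control 2. FPKM is scaled by length, so shares of this sum can be set side by side. Tgfb3 supplied 61.5% to 63.0% of it in cKO and 61.7% to 67.1% in control. The share of Tgfb1 was 22.5% to 24.6% in cKO and 20.98% to 23.0% in control, and that of Tgfb2 was 12.4% to 15.4% in cKO and 11.6% to 15.4% in control. All 3 shares overlapped between the groups, so the composition of the ligand pool did not separate them.

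**Figure D2:**
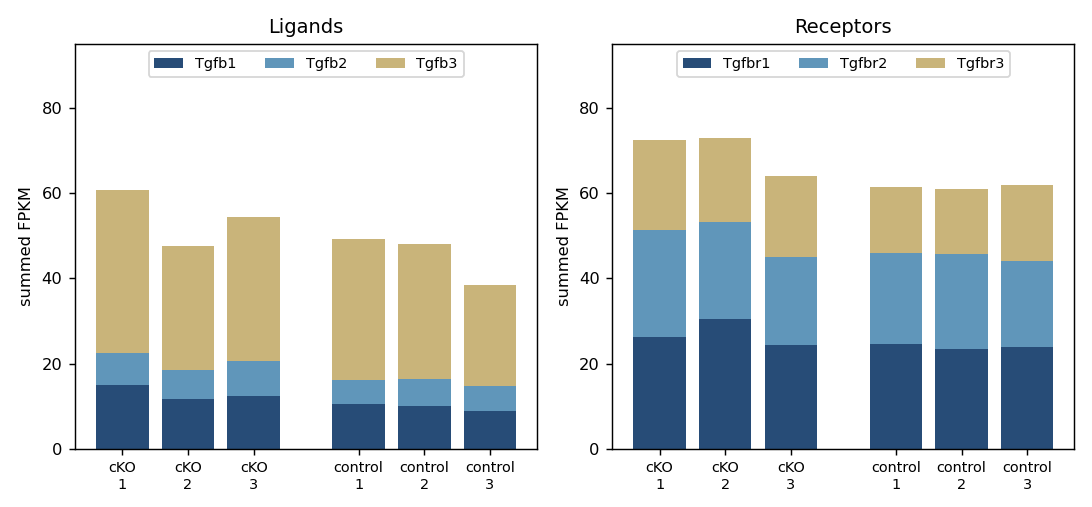
Stacked bars of FPKM of the ligands (left) and the receptors (right) in each library, cKO libraries first, with axes from 0. Ligand sums overlap between the groups, and receptor sums run from 63.9 to 72.8 FPKM in cKO and from 60.9 to 61.9 FPKM in control.

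Of the receptors, Tgfbr3, which encodes betaglycan, measured 21.3, 19.6 and 18.9 FPKM in cKO 1 to 3, against 15.5, 15.1 and 17.8 FPKM in control 1 to 3. All cKO libraries were above all controls, with control 3 the nearest to them. Means were 19.9 ± 1.20 FPKM in cKO and 16.2 ± 1.42 FPKM in control (SD, n = 3 each). The log2 change was 0.29 (SE 0.09), with a 95% interval from 0.08 to 0.50 and an adjusted p of 0.112 by limma. With libraries weighted by their quality (limma array weights) its adjusted p was 0.041, the one alternative in which any of the 9 genes passed. Tgfbr3 spans chr5:107106570-107289629 on the minus strand and shares exonic bases with Gm43422 on the same strand.

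The signalling receptors Tgfbr1 and Tgfbr2 were less different. Tgfbr1, the type I receptor kinase, measured 26.2, 30.5 and 24.2 FPKM in cKO 1 to 3, against 24.7, 23.5 and 24.0 FPKM in control 1 to 3. Tgfbr2, the type II receptor that binds ligand first, measured 25.1, 22.8 and 20.7 FPKM in cKO 1 to 3, against 21.3, 22.2 and 20.1 FPKM in control 1 to 3. Both genes overlapped between the groups, and the highest value was from cKO 2 for Tgfbr1 and from cKO 1 for Tgfbr2. The log2 changes were 0.15 (95% interval from -0.07 to 0.38, adjusted p 0.372) for Tgfbr1 and 0.10 (95% interval from -0.11 to 0.32, adjusted p 0.538) for Tgfbr2, both by limma. The intervals allow an increase or a smaller decrease of either gene and do not show that they stayed the same. Single libraries moved both values: the change of Tgfbr1 was 0.07 without cKO 2, and that of Tgfbr2 was 0.04 without cKO 1 and 0.17 without cKO 3. The ratio of Tgfbr1 to Tgfbr2 FPKM was 1.05 to 1.33 in cKO and 1.06 to 1.19 in control. Summed over Tgfbr1, Tgfbr2 and Tgfbr3, receptors measured 72.6, 72.8 and 63.9 FPKM in cKO 1 to 3, against 61.5, 60.9 and 61.9 FPKM in control 1 to 3, without overlap.

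Ltbp1, whose product binds latent TGF-beta and anchors it to fibrillin in the matrix, measured 17.6, 15.0 and 16.9 FPKM in cKO 1 to 3, against 17.7, 17.3 and 22.3 FPKM in control 1 to 3. Control 3 stood above the other 5 libraries, which lay between 15.0 and 17.7 FPKM. The log2 change was -0.19 (SE 0.12), at an adjusted p of 0.353 by limma, and without control 3 it was -0.08. Set against the summed ligands, Ltbp1 stood at a ratio of 0.290, 0.315 and 0.310 in cKO 1 to 3, against 0.359, 0.360 and 0.579 in control 1 to 3. This ratio, chosen after the values were seen and not tested, did not overlap between the groups, and its numerator and denominator differed in opposite directions. The gene spans chr17:75005568-75392512 on the plus strand and has 10 annotated transcripts, which the gene-level table does not separate.

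Relative to their means, Smad6 and Smad7 had the largest spread among controls of the 9 genes, with SDs of 29.2% and 31.0% of the mean. In both, the library control 3 lay with the cKO libraries. Smad6, the inhibitor that acts mainly on BMP receptors, measured 3.16, 2.68 and 3.80 FPKM in cKO 1 to 3, against 5.76, 5.43 and 3.19 FPKM in control 1 to 3. Control 1 and control 2 were above all cKO libraries, and control 3 lay between cKO 1 and cKO 3. Means were 3.21 ± 0.56 FPKM in cKO and 4.79 ± 1.40 FPKM in control (SD, n = 3 each), a ratio of 0.67. The log2 change was -0.44 (SE 0.20), with a 95% interval from -0.90 to 0.03 and an adjusted p of 0.233 by limma. Without control 3 the log2 change was -0.65 and the adjusted p 0.057, and over the fits without any 1 library the adjusted p ran from 0.057 to 0.523. Smad6 had the fewest fragments of the 9 genes, about 184 to 399 per library at the estimated depths if every exon is counted. It lies at chr9:63953076-64022059 on the minus strand.

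The promoter of Smad6 is shown because Smad6 had the largest log2 change of the 9 genes in either direction; it is the RefSeq sequence of the same build, 250 bases before the start, with motif matches in capitals.
Smad6, chr9:64022060-64022309, minus strand: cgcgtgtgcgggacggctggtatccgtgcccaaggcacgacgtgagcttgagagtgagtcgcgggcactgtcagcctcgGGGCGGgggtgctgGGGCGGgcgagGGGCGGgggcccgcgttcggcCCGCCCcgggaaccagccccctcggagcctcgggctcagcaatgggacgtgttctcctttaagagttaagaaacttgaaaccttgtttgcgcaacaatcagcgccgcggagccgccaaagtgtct
It was 66.8% G and C and held 4 GC boxes, from -171 to -125, and none of the other motifs searched. The absence of these letters from the window says nothing about SMAD binding elsewhere.

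Smad7, which blocks TGF-beta receptors and recruits ubiquitin ligases to them, measured 8.12, 5.26 and 5.96 FPKM in cKO 1 to 3, against 9.86, 9.21 and 5.22 FPKM in control 1 to 3. Control 3 was the lowest of all 6 libraries, just under cKO 2, and cKO 1 was the highest of its group. The log2 change was -0.27 (SE 0.23), with a 95% interval from -0.81 to 0.28 and an adjusted p of 0.525 by limma; with 1 library left out it ran from -0.52 without control 3 (adjusted p 0.136) to -0.12 without control 1 (adjusted p 0.851), and it was -0.15 without cKO 2. Summed over both inhibitors, the values were 11.3, 7.94 and 9.76 FPKM in cKO 1 to 3, against 15.6, 14.6 and 8.41 FPKM in control 1 to 3. The ratio of Smad7 to Smad6 spread from 1.57 to 2.57 in cKO, against 1.64 to 1.71 in control, control 3 included. No exon of Smad6 or Smad7 overlaps another annotated gene.

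**Figure D3:**
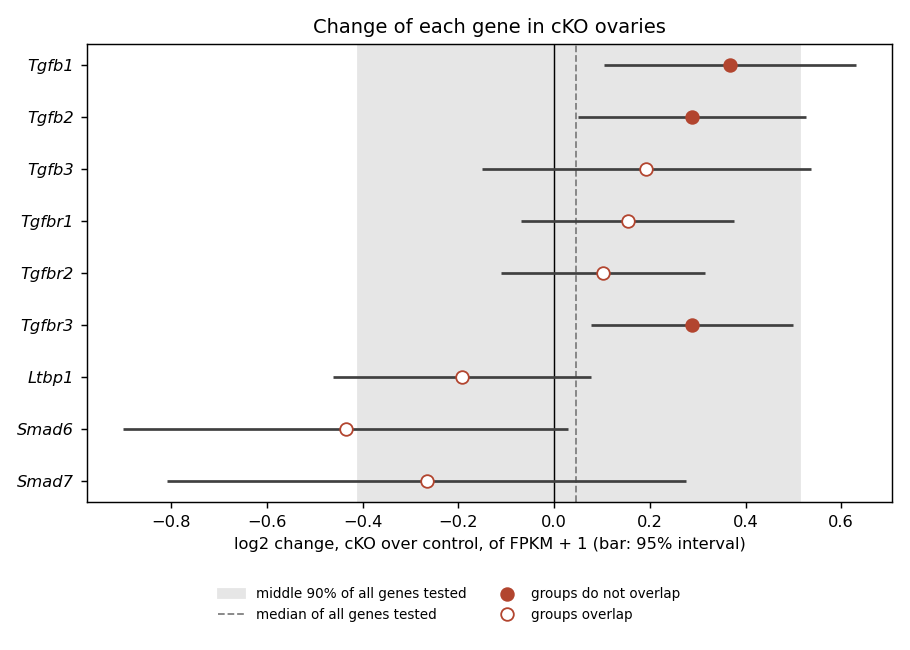
Log2 change of FPKM + 1, cKO over control, for each gene with its 95% interval (bar); filled points mark genes whose groups do not overlap, the grey band holds the middle 90% of all genes tested and the dashed line is their median, 0.05. The intervals of Tgfb1, Tgfb2 and Tgfbr3 lie above 0, all others cross it, and Smad6 and Smad7 have the widest.

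In order of mean level, the cKO libraries gave Tgfb3 (33.8 FPKM), Tgfbr1 (27.0), Tgfbr2 (22.9), Tgfbr3 (19.9), Ltbp1 (16.5), Tgfb1 (12.98), Tgfb2 (7.51), Smad7 (6.44) and Smad6 (3.21). The control libraries gave Tgfb3 (29.6 FPKM), Tgfbr1 (24.0), Tgfbr2 (21.2), Ltbp1 (19.1), Tgfbr3 (16.2), Tgfb1 (9.80), Smad7 (8.10), Tgfb2 (5.94) and Smad6 (4.79). Between these orders Tgfbr3 changed places with Ltbp1, and Tgfb2 with Smad7. In cKO the ranges of the first 4 genes overlapped from each to the next, as did those of Tgfb2 and Smad7. In control the neighbours with ranges apart were Tgfbr1 above Tgfbr2 and Tgfbr3 above Tgfb1. Tgfbr1 lies at chr4:47353222-47414931 on the plus strand, Tgfbr2 at chr9:116084293-116175360 on the minus strand and Smad7 at chr18:75367529-75395935 on the plus strand. Tgfb3 was above 80.1% of all genes tested in mean FPKM, and Smad6 was above 28.5%.

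The numbers in the library labels fall into 2 ranges of unstated meaning: the lower range covers cKO 1 and all controls, and the higher range covers cKO 2 and cKO 3. Within the lower range, cKO 1 against the 3 controls gave log2 changes of 0.56 for Tgfb1, 0.30 for Tgfb2, 0.38 for Tgfbr3 and -0.45 for Smad6, with no gene of the 9 passing. There the change of Smad7 was 0.05, opposite in sign to that over all 6 libraries. The higher range holds cKO libraries only, so it gives no comparison.

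Cell type markers also differed between the libraries. Summed FPKM of 10 stromal markers was 1511 to 2080 in cKO and 1266 to 1356 in control, with 9 of 10 positive in log2 change and with 2 higher and 1 lower by the test; the list shares Dcn and 3 collagen genes with the pathway lists below. The 10 endothelial markers summed to 205 to 226 FPKM in cKO and 183 to 191 in control, with 9 of 10 positive. This list shares Eng with the pathway lists below. The 14 granulosa cell markers summed to 2746 to 3155 FPKM in cKO and 3924 to 4825 in control, and 6 of them fell. Of the 14, 10 were negative and 4 positive in log2 change. Foxl2 and Kctd14, among the positive, had every cKO library above every control. Inha alone measured 1265 ± 158 FPKM in cKO and 2017 ± 237 FPKM in control (SD, n = 3 each). The 12 oocyte markers summed to 1363 to 2110 FPKM in cKO and 1026 to 1169 in control, and 3 of them rose. Of the 12, 9 were positive and 3 negative in log2 change. The 5 lymphatic endothelial markers summed to 277 to 293 FPKM in cKO and 226 to 244 in control, with 5 of 5 positive. The 7 mast cell markers summed to 51.5 to 85.1 FPKM in cKO and 23.6 to 37.9 in control, and 5 of the 6 tested rose. The tested gene that did not pass was Kit, which is also in the oocyte list. Kit measured 18.5, 14.7 and 17.8 FPKM in cKO 1 to 3, against 10.2, 12.3 and 15.7 FPKM in control 1 to 3. The stromal, endothelial, lymphatic, oocyte and mast cell sums thus separated the groups in the same direction as Tgfb1, Tgfb2 and Tgfbr3, and the granulosa sum in the opposite one; their part in these values was not tested. The 10 smooth muscle and pericyte markers overlapped, at 758 to 1036 FPKM in cKO and 943 to 1128 in control, with 7 positive, 3 negative and a median log2 change of 0.09. The 10 macrophage and other immune markers overlapped, at 40.1 to 48.0 FPKM in cKO and 35.9 to 45.1 in control. So did 9 theca and steroidogenic markers, at 1584 to 1985 FPKM in cKO and 1528 to 1739 in control, with 8 positive. Erythroid markers, 5 of 5 negative, summed to 1277, 924 and 4174 FPKM in cKO 1 to 3, against 6277, 3988 and 2021 FPKM in control 1 to 3. There too control 3 lay within the cKO range. Sums of ovarian surface and oviduct epithelium markers also overlapped. Control 3, which stood apart for Smad6, Smad7 and Ltbp1, also had the highest adipose marker sum. The 8 markers summed to 17.8, 16.8 and 16.8 FPKM in cKO 1 to 3, against 15.5, 16.2 and 41.1 FPKM in control 1 to 3. Of the 6 tested, 5 were negative in log2 change. The other, Plin1, rose by 0.91 (adjusted p 0.0231 by limma) and was lowest in control 3. It measured 13.9, 10.6 and 11.8 FPKM in cKO 1 to 3, against 6.18, 6.79 and 4.95 FPKM in control 1 to 3. The part of adipose tissue or of erythroid RNA in the values of control 3 was not tested.

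For a wider view of the pathway, 82 further genes in 6 lists were examined, of which 78 were tested. Of these, 6 rose, 1 fell and 71 did not pass, beside 4.33% of all genes tested that passed in either direction. The median log2 change was 0.19, against 0.05 over all genes tested. Every cKO library was above every control for 33 of the 78 genes and below for 3, where 18% and 12% of all genes tested had these patterns. All 7 calls were lost without control 1, without control 2, without cKO 1 or without cKO 2, and Bmp1, Eln and Itgav passed without cKO 3.

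**Figure D4:**
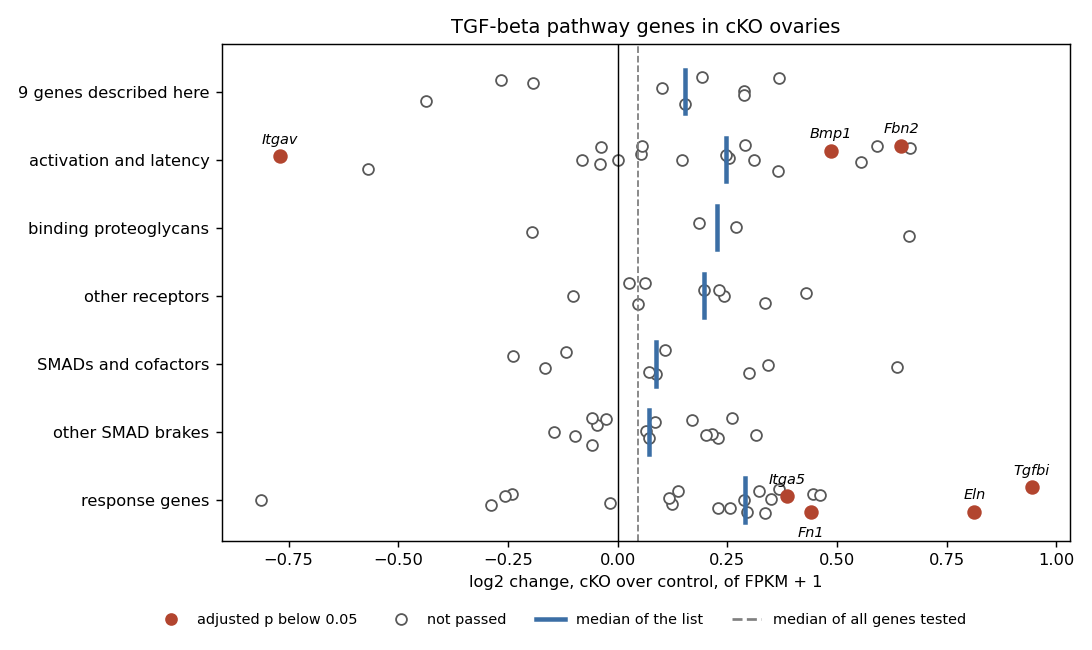
Log2 change of FPKM + 1, cKO over control, for the 9 genes described here (top) and 78 other tested genes of the pathway in 6 lists; red points passed at an adjusted p below 0.05, blue bars are list medians and the dashed line is the median of all genes tested. None of the top row passed, and 4 of the 7 red points lie among the response genes.

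Genes that store, release or activate the ligands gave 3 of these calls among 19 tested. None of the integrin beta subunit genes in this list passed, and Itgb6, at a mean of 0.0142 FPKM, was not tested. Itgav encodes the alpha subunit of integrins that free active ligand from the latent complex. It measured 20.4, 23.0 and 25.9 FPKM in cKO 1 to 3, against 38.9, 39.1 and 41.9 FPKM in control 1 to 3. Itgav was the 1 gene of the pathway that fell, with a log2 change of -0.77 (SE 0.10, adjusted p 0.0169 by limma). Itgav shares exonic bases with Gm13684 on the opposite strand, as Fbn2 does with Gm26507, Eln with Gm30003, Fn1 with Apol7d and Eng, named below, with Fpgs, and reads of such pairs may not have been told apart. Bmp1, a protease that cleaves procollagens and LTBP1, measured 38.5, 39.8 and 36.4 FPKM in cKO 1 to 3, against 26.3, 26.9 and 27.6 FPKM in control 1 to 3. It rose by 0.49 on the log2 scale (adjusted p 0.0213 by limma). Fbn2, a fibrillin gene of the microfibrils that hold latent complexes, measured 13.8, 15.3 and 13.01 FPKM in cKO 1 to 3, against 7.46, 7.78 and 10.9 FPKM in control 1 to 3, and rose by 0.65 on the log2 scale (adjusted p 0.0498 by limma). That call is close to the threshold and was not made with libraries centred on the median, after quantile normalisation or with nuclear genes rescaled to a common sum, at adjusted p-values of 0.062, 0.065 and 0.057.

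Of 22 tested genes known to respond to TGF-beta in cultured cells, 4 rose and 0 fell, and the median log2 change was 0.29. At an unadjusted p below 0.05, 11 were higher and 2 lower, where 14.5% and 9.8% of all genes tested were. Tgfbi, a matrix protein gene named for its induction by TGF-beta, measured 83.3, 60.2 and 58.1 FPKM in cKO 1 to 3, against 31.5, 30.3 and 41.1 FPKM in control 1 to 3. Its log2 change of 0.94 was the largest in the pathway, with SE 0.17 and an adjusted p of 0.0325 by limma. Eln, the gene of elastin, measured 39.6, 38.3 and 30.6 FPKM in cKO 1 to 3, against 21.98, 20.6 and 17.7 FPKM in control 1 to 3, and rose by 0.81 on the log2 scale (adjusted p 0.024 by limma). Fn1, the gene of fibronectin, measured 21.7, 20.7 and 20.0 FPKM in cKO 1 to 3, against 15.9, 14.2 and 15.2 FPKM in control 1 to 3. Fn1 rose by 0.44 (adjusted p 0.0338 by limma), and so did Itga5, a subunit of the fibronectin receptor named after its values were seen, by 0.39 (adjusted p 0.0464 by limma). Without control 3 neither passed, at adjusted p-values of 0.054 for Fn1 and 0.089 for Itga5, and Itga5 also did not pass after quantile normalisation (0.057) or centring on the median (0.058). These genes are also made by stromal cells, whose marker sums are given above. Acta2, Tagln and Cnn1, contractile genes of the list named after their values were seen, had log2 changes of -0.24, -0.26 and -0.29 that did not pass; they are the 3 negative genes of the smooth muscle and pericyte markers, whose other 7 were positive. Junb, an early response gene also named after its values were seen, measured 3.46, 3.30 and 3.61 FPKM in cKO 1 to 3, against 8.88, 10.03 and 3.41 FPKM in control 1 to 3 (adjusted p 0.173 by limma). As for Smad6 and Smad7, control 3 lay with the cKO libraries.

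The remaining 4 lists held no call by limma. At an unadjusted p below 0.05, 2 proteoglycans, 2 receptors or co-receptors, 3 SMADs or cofactors and 3 other SMAD regulators were higher. By the same measure, 1 SMAD or cofactor was lower. Over all genes tested the shares were 14.5% higher and 9.8% lower. The receptor list, the other SMAD regulators and the 1 lower gene were thus near the background. Among 4 proteoglycans that bind TGF-beta, Dcn (decorin) measured 309 ± 62.1 FPKM in cKO and 194 ± 36.8 FPKM in control, and Bgn (biglycan) 267 ± 54.4 FPKM in cKO and 231 ± 8.77 FPKM in control (SD, n = 3 each). Their adjusted p-values were 0.0775 and 0.451 by limma. The list of other receptors, co-receptors and their partners held 9 genes. Of these, Fkbp1a, a binding partner of TGFBR1, measured 152 ± 9.16 FPKM in cKO and 163 ± 6.24 FPKM in control. Eng, the endothelial co-receptor endoglin, measured 43.8 ± 5.51 FPKM in cKO and 36.8 ± 3.36 FPKM in control (SD, n = 3 each). Of 9 tested SMADs and cofactors, the adaptor gene Dab2 measured 62.3 ± 1.69 FPKM in cKO and 73.8 ± 5.84 FPKM in control, and Strap, a receptor-binding inhibitor, 64.0 ± 5.01 FPKM in cKO and 69.5 ± 4.05 FPKM in control (SD, n = 3 each). Of 15 other regulators of SMAD signalling, the co-repressor genes Tgif1 and Ski had log2 changes of 0.06 and -0.14. Medians were 0.23 for the proteoglycans, 0.20 for the receptor list, 0.09 for the SMADs and cofactors and 0.07 for the other SMAD regulators. Smad3, named after its values were seen, had the largest change in these lists apart from Dcn: it measured 68.0, 42.1 and 44.5 FPKM in cKO 1 to 3, against 32.1, 29.3 and 34.9 FPKM in control 1 to 3, at an adjusted p of 0.0859 by limma.

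Genes with the profile closest to that of Tgfb1 over the 6 libraries were Col4a2, a basement membrane collagen gene, Flywch1 and C1qtnf6. Closeness was the root mean square difference of log2(FPKM + 1) values centred on each gene's own mean, and it was 0.028, 0.033 and 0.035 for these genes. Each was highest in cKO 1 and lowest in control 3, as Tgfb1 was. Closest to Smad6 were Tpd52l1, Nme1, a nucleoside diphosphate kinase gene, and Mif, a cytokine gene, at 0.055, 0.080 and 0.080. All 3 were high in control 1 and control 2 and not in control 3; Tpd52l1 measured 19.0, 15.5 and 21.3 FPKM in cKO 1 to 3, against 28.0, 27.2 and 18.3 FPKM in control 1 to 3. None of these 6 genes passed the test. A close profile over 6 libraries is a description, and many genes share a split between the groups.

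**Figure D5:**
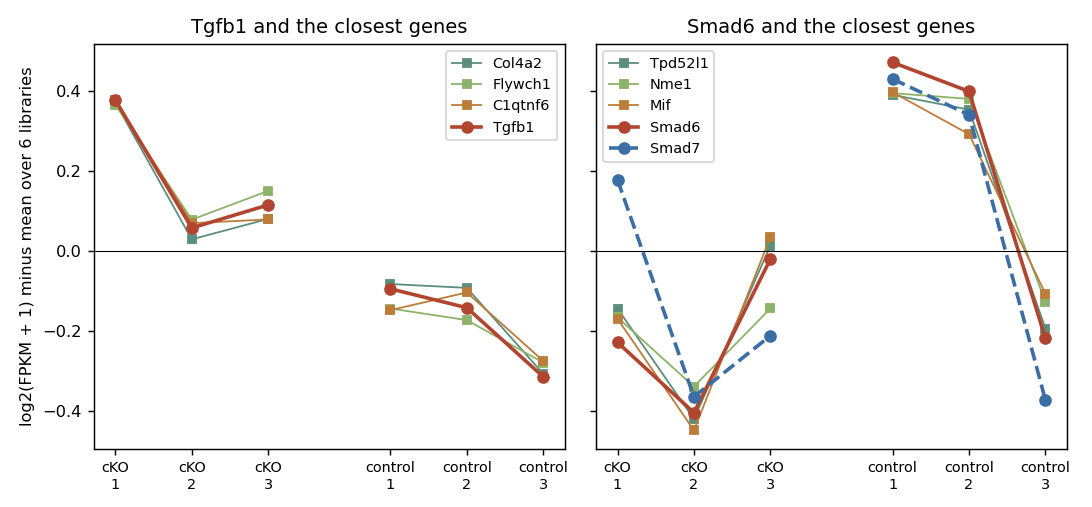
Log2(FPKM + 1) of each gene minus its mean over the 6 libraries, for Tgfb1 (left) and for Smad6 and Smad7 (right) with the 3 closest genes of each; lines join libraries of 1 group. Tgfb1 and its closest genes are highest in cKO 1, and Smad6, Smad7 and the genes closest to Smad6 are highest in control 1 and control 2.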

How the data were processed

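Whole-ovary RNA of 6 pools was sequenced on an Illumina instrument, per the labels' protocols. The authors deposited 1 table of FPKM per Ensembl gene and library; its header states no unit, and the unit was read from the tools named and the form of the values. Per the submitters' processing notes, TopHat2 2.0, Cufflinks 2.0 and mm10 were used, without stated roles. The sources used here do not give the annotation, strand setting or filters. FPKM divides by the library total, so abundant transcripts lower all other values. The floxed gene is not reported here, so its values were not used to check the genotypes.

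Groups were taken from the genotype labels, and replicate numbers follow the order of deposit. Genes averaging at least 0.5 FPKM across the libraries entered the linear model of limma 3.58.1 (R 4.3.3), with a trended eBayes prior, as log2(FPKM + 1), and Benjamini-Hochberg adjustment covered every gene tested. Depth was estimated from values below 0.15 FPKM, read as 1 fragment, in genes with 1 transcript and at least 1500 exonic bases, less 150 bases for the fragment, and no interval was built on it. Positions, overlaps and names came from GENCODE M21, on the assembly of mm10. The pathway genes Nrros and Ldlrad4, deposited under older symbols, were matched through their Ensembl identifiers. Promoters came from RefSeq, which held 6 of the 9 genes. The fit was tested on simulated data, with planted log2 changes larger than those of the 9 genes. That check gives no measure of how often changes of their size would be found.

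The 9 genes, the lists and the tests were chosen with earlier results of these data known. All 9 genes are named; of each other list, up to 3 passing genes in each direction with the smallest p, or the 2 with the highest mean where none passed. Genes of like pattern were the 3 closest, among genes with a mean of at least 5 FPKM and without gene model names, to the genes with the smallest p in each direction. Alternatives were other pseudocounts, filters, scalings, array weights and libraries left out.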

Additional observations from a re-analysis of the deposited data

How the results depend on the processing

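None of the 9 genes passed in 15 of 16 alternatives; with array weights 1 did, Tgfbr3, at a log2 change of 0.34. The other 8 passed in none of the 16. Directions held for all 9 genes under every alternative except Smad7 in cKO 1 against the 3 controls, at 0.045. The lone cKO library was there assumed to vary as the controls did.

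Counts were less stable. Array weights gave 1041 genes higher and 743 lower in the whole table, and 14 and 3 in the other pathway lists. Without a filter there were 4 and 24, and 0 and 0 in the pathway. In cKO 1 against the 3 controls there were 22 and 1, and 0 and 0. With libraries centred on the median 254 were higher and 577 lower, 4 and 2 in the pathway. With quantile normalisation 270 and 421, and with a mean of at least 2 FPKM 401 and 338, the pathway had 2 lower genes in each. Leaving out cKO 3 and control 3 together, chosen after the data were seen, gave 204 and 267, and 6 and 2 in the pathway. With 1 library left out, 0 to 307 genes were higher and 2 to 353 lower, 0 to 6 and 0 to 3 in the pathway and 0 of the 9. The excess of summed FPKM in cKO was then 5.55 to 12.2 for ligands and 6.83 to 11.3 for receptors.

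No paired analysis was possible because replicate numbers are absent from the labels. Depth is estimated, and 3 libraries a group leave wide intervals for Smad6 and Smad7.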
